A study of Acomys cahirinus and Mus musculus with 10 samples.

Results

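The 10 genes described here, Adipoq, Lep, Plin1, Plin4, Lpl, Cfd, Cidea, Lipe, Pnpla2 and Pparg, were chosen by name as genes of the adipocyte, the fat-storing cell that lies beneath the dermis and around the cartilage of the ear. They are 10 of 24092 genes measured in Mus and were followed in the same tissue of Acomys. There 676820 assembled components were measured, and 14913 mouse genes were paired with a component. The study compared ear-hole closure after a 4-mm biopsy punch in the spiny mouse Acomys cahirinus with that in the outbred CD1 laboratory mouse Mus musculus. RNA came from sexually mature females of both species before injury (D0) and 5, 10, 15 and 20 days after the punch (D5, D10, D15 and D20), as a ring of ear pinna that in punched ears lay about 1 mm proximal to the healing margin. The labels give D0 of both species as uninjured ear and the later days as regenerating in Acomys and fibrotic in Mus. Each of the 10 groups is 1 GEO sample, and per the study's methods it stands for 3 animals with 1 strand-specific library each, sequenced as 50-bp pairs. No transgene or test compound is described for any group, species and day being the variables, and all 4 later days of a species were compared with the same D0 libraries.

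Adipocytes hold triglyceride in a large droplet coated by perilipins, fill that droplet with fatty acids that lipoprotein lipase frees from circulating lipoproteins, and empty it through adipose triglyceride lipase and hormone-sensitive lipase. PPARγ, the product of Pparg, is the transcription factor that drives their differentiation and maintains the expression of many of the other genes listed here. Mature fat cells also secrete hormones, among them adiponectin (Adipoq) and leptin (Lep), and the serine protease adipsin (Cfd) of the alternative complement pathway. Several of these genes are not restricted to fat, since muscle uses Lpl, Pnpla2 and Lipe, and sebocytes, the lipid-secreting cells of the sebaceous gland, express Cidea and Pparg.

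Depth differed between days. Size factors, which scale each library to the common depth of its table, ranged lower at D0 than at the later day in all 4 Mus tables, without overlap in that of D10, at 0.628 to 0.834 for D0 against 1.31 to 1.46 for D10. In the Mus table of D20 they were 0.726 to 0.964 against 0.944 to 1.42. In Acomys the D0 factors were the higher ones in the table of D5, at 1.01 to 1.30 against 0.789 to 0.985, and overlapped those of the later day in the other tables. The values below are scaled by these factors, and the part of depth in the results was not tested. Summed normalised expected reads of a group, each on the scale of its own table, ranged from 7330084 to 9409079.7 in Mus and from 14454829 to 18203633 in Acomys. The same Mus D0 libraries summed to 7716931, 9409080, 7534537 and 8135238 in the tables of D5, D10, D15 and D20, so these ranges carry the scaling of the tables. All values below are normalised expected reads on the D0 scale of their species, so levels may be compared between days of a species but not between the species. The value of each library was recovered from the deposited ratios, and a library's number is only a name. At D15 in Acomys only 2 distinct libraries were recovered, and the group mean weighted 1 of them as 2 of 3 entries. The contributions of the 2 libraries to the mean had a median ratio of 2.00 over 17630 components, where equal weights give 1. Acomys D15 is therefore given as 2 libraries, although its group mean and posterior calls carry the double weight. The cause was not tested. Adipoq, Lep and Plin1, the defining markers of the fat cell, had reads in every library of both species, with a low of 2 reads in Acomys and of 5 reads in Mus, both for Lep. In bulk tissue, fewer fat cells in the ring and less RNA per fat cell cannot be told apart.

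Each Acomys value belongs to the component that matched the mouse transcript best, and all 10 matches were reciprocal, at 84.6% identity for Cfd to 94.8% for Pparg. To show how far the transcripts of the 2 species differ where reads were counted, 150-base coding windows are printed 5′ to 3′ for the 4 genes that carry the species comparison below. The mouse bases come from the GENCODE transcripts of build mm10 (GRCm38), and the Acomys bases from the assembled contig. The Lep window lies in exon 3 of 3 at chr6:29070823-29070972 on the plus strand, and that of Adipoq in exon 3 of 3 at chr16:23157074-23157223 on the plus strand. The Plin1 window lies in exon 9 of 9 at chr7:79721610-79721759 on the minus strand, and that of Pparg in exon 7 of 8 at chr6:115472861-115473010 on the plus strand. Capitals mark the bases at which the species differ, 12 for Lep, 19 for Adipoq, 17 for Plin1 and 7 for Pparg, the nuclear receptor having the most similar window at 95.3% identity.
Lep, Mus: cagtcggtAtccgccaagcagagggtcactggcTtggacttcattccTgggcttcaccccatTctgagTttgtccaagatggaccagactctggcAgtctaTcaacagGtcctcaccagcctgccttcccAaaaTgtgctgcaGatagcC
Lep, Acomys: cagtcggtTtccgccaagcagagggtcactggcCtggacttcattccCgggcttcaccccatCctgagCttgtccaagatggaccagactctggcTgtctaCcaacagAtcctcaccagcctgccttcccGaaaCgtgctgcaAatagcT
Adipoq, Mus: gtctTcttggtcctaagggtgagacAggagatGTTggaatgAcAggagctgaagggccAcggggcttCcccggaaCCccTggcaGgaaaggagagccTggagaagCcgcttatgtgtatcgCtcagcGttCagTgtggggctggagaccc
Adipoq, Acomys: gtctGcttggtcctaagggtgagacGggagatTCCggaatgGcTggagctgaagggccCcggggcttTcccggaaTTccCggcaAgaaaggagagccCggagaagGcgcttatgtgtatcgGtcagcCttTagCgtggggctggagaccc
Plin1, Mus: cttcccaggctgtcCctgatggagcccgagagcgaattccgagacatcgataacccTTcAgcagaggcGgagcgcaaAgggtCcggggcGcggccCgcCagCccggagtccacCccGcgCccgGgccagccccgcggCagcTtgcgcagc
Plin1, Acomys: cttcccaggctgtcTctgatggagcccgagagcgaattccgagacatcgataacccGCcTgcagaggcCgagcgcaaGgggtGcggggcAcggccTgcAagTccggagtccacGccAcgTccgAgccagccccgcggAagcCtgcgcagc
Pparg, Mus: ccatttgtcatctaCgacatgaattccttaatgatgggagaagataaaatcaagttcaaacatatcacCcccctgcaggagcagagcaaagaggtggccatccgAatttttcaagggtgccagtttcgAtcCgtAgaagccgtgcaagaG
Pparg, Acomys: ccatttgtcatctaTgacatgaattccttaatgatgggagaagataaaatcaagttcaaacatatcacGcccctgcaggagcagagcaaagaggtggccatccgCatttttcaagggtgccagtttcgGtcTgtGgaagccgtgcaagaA

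In both species most of the 10 genes were lower after the punch than at D0, and by D20 the species had parted. A gene was called where the deposited EBSeq comparison gave a posterior probability of differential expression of at least 0.95. In Acomys 9, 10, 10 and 10 of the 10 genes were called lower at D5, D10, D15 and D20. The background was 0.978%, 0.88%, 1.11% and 0.9% of all components, and 4.09%, 3.37%, 4.11% and 3.86% of those with a mean of at least 10 in either group. Most of these components had no match to a mouse gene, so the shares are not those of matched components. In Mus 8, 9, 9 and 5 of the 10 were called lower, beside 13.6%, 14.1%, 12.5% and 11.9% of all genes and 19.4%, 19.6%, 17.9% and 17.0% of those with a mean of at least 10. The Mus count at D20 was 3 where a log2 change of at least 1 in size was also required. None of the 10 was called higher in any of the 8 comparisons, beside 1.78%, 1.28%, 1.33% and 0.948% of all components in Acomys and 16.5%, 15.1%, 13.2% and 12.3% of all genes in Mus. The median log2 change of the 10 genes was -1.60, -1.53, -1.97 and -2.07 at the 4 days in Acomys. In Mus it was -1.73, -1.80, -1.91 and -0.58, while the median over all features with a mean of at least 10 stayed between -0.02 and 0.02 in every comparison. The genes not called lower were Pnpla2 at D5 in Acomys and, in Mus, Lep and Lipe at D5, Lipe at D10, Lpl at D15, and Adipoq, Lep, Plin1, Lipe and Pparg at D20.

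**Figure D1:**
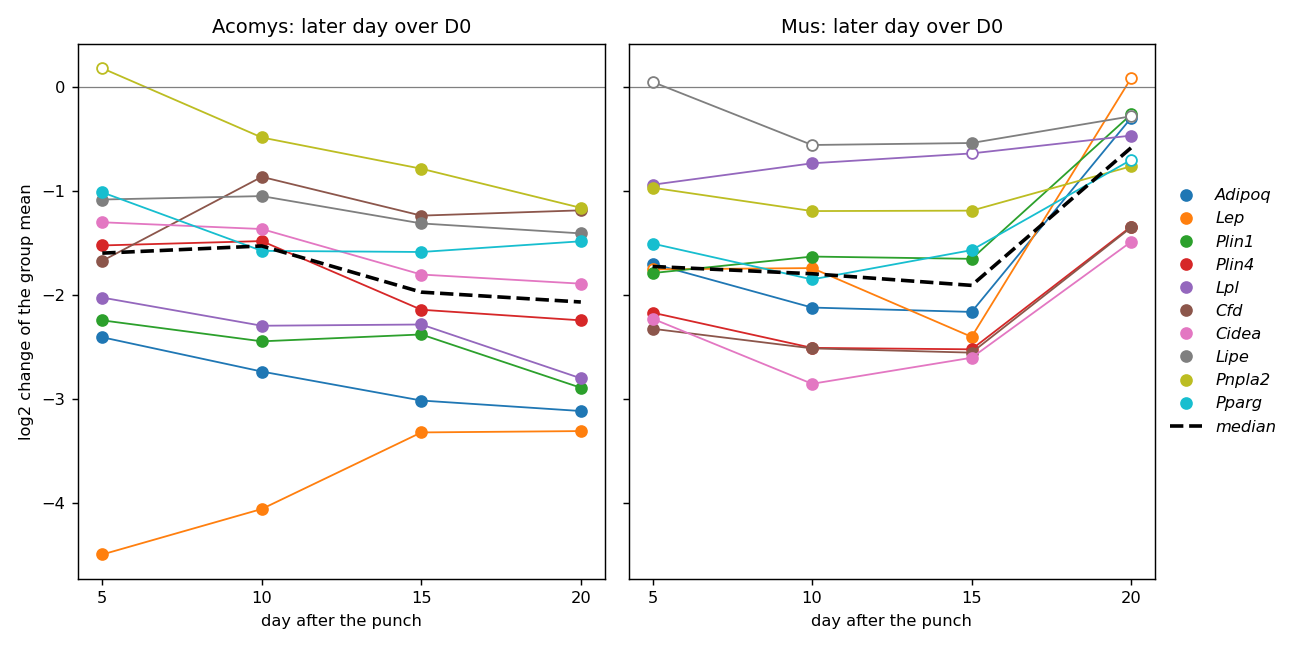
Log2 change of each of the 10 genes from D0 (y axis, ratio of group means) against day after the punch (x axis) in Acomys and Mus; filled points were called at a posterior probability of at least 0.95. Acomys points stay below 0 to D20 except for Pnpla2 at D5 (0.18), whereas those of Adipoq, Lep and Plin1 in Mus return to between -0.30 and 0.09 at D20.

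The values of single libraries were compared next. In Acomys they were sought only for the 29113 components that matched a named mouse gene and were present in all 4 comparisons. Where every library of a day could be recovered, all of them lay below all D0 libraries for 8 of 9, 8 of 8, 10 of 10 and 8 of 8 genes in Acomys, beside 25.8%, 25.7%, 31.8% and 31.2% of components. In Mus the counts were 8 of 8, 8 of 8, 8 of 8 and 4 of 7 genes, beside 33.8%, 31.4%, 28.1% and 27.2% of genes. A limma test on log2(normalised reads + 1) with Benjamini-Hochberg adjustment over all recovered features put 8 of 9, 8 of 8, 10 of 10 and 8 of 8 genes past an adjusted p of 0.05 in Acomys. The share of components lower in this test was 22.0%, 20.2%, 21.4% and 24.6%. In Mus it put 8 of 8, 8 of 8, 8 of 8 and 4 of 7 genes past the threshold, beside 29.1%, 25.3%, 21.5% and 21.3% of genes. Libraries could not be recovered for Lipe and Lpl in Mus at any later day or for Plin4 at D20. In Acomys they were missing for Plin4 at D5, D10 and D20, Cfd at D20 and Cidea at D10, and these genes are given below by their group means.

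Adiponectin, a hormone made almost only by fat cells, was still below D0 at D20 in Acomys, while the Mus libraries of that day overlapped D0. In Acomys its 3 D0 libraries held 1276, 1275 and 850 reads. The D5 libraries held 184, 207 and 251, those of D10 183, 161 and 167, those of D15 227 and 96.8, and those of D20 114, 139 and 139. No library after the punch reached the range of D0, and the D20 mean stood at 11.5% of the D0 mean (limma log2 change -3.09, SE 0.13, adjusted p = 4.15e-11). In Mus the D0 libraries held 114, 109 and 116 reads. They were followed by 32.6, 26.6 and 45.3 at D5, by 36.1, 29.3 and 12.5 at D10, and by 4.70, 22.9 and 48.1 at D15. At D20 the Mus libraries held 88.0, 122 and 66.3 reads and overlapped those of D0, with a mean at 81.4% of D0. The limma log2 change of Adipoq in Mus was -1.70 at D5 (SE 0.19, adjusted p = 5.38e-05) and -0.34 at D20 (SE 0.20, adjusted p = 0.187).

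**Figure D2:**
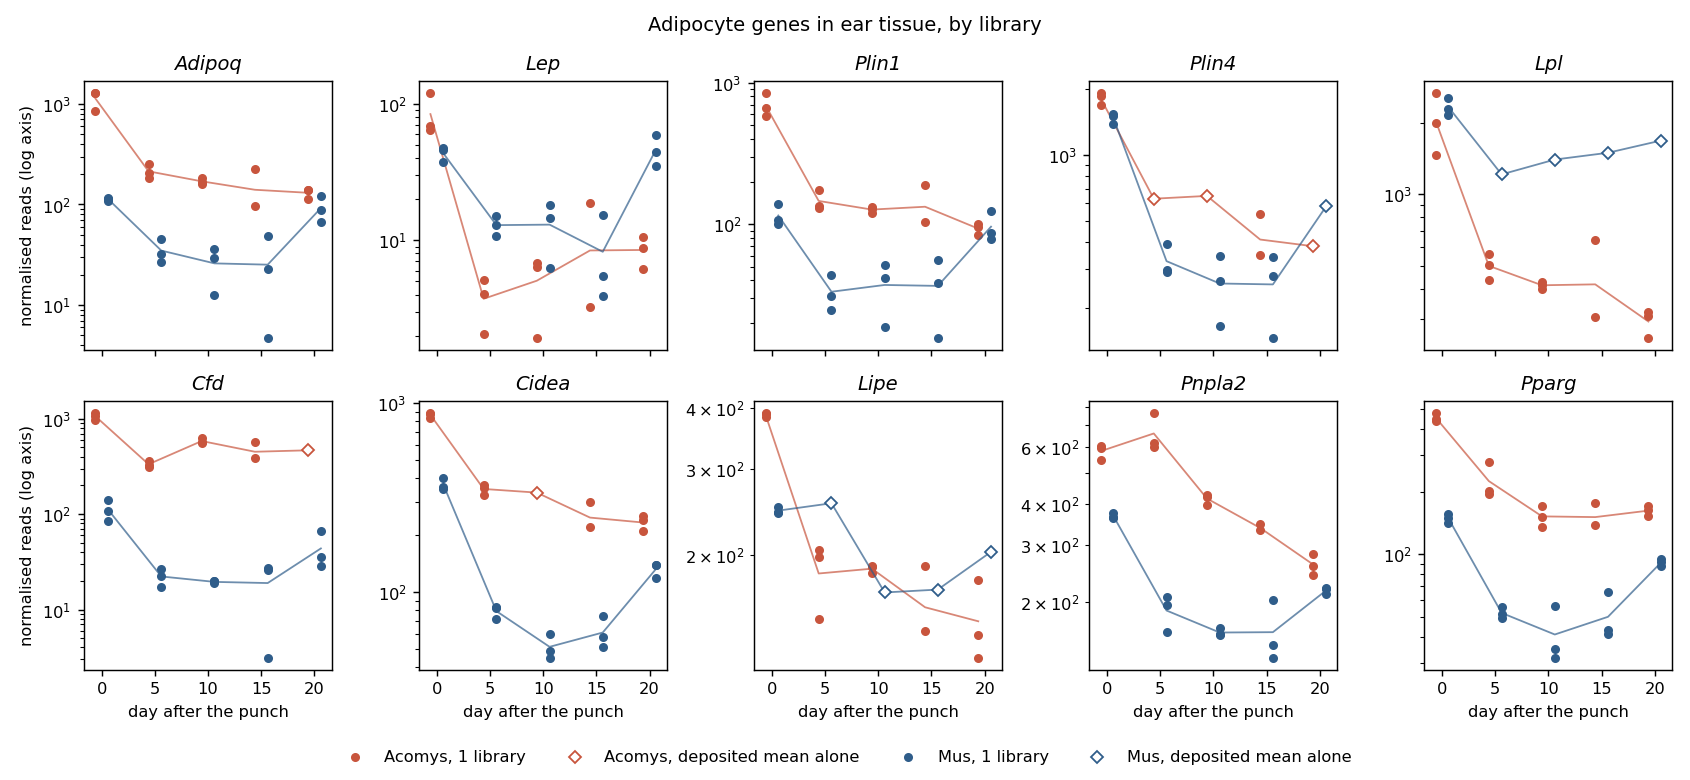
Normalised reads (y axis, log scale) of the 10 genes by day after the punch (x axis); points are recovered libraries, 3 a group and 2 for Acomys at D15, and lines join the deposited group means. Groups without points could not be resolved into libraries; Adipoq in Acomys ends at 114 to 139 from 850 to 1276, while in Mus it ends at 66.3 to 122 from 109 to 116.

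Leptin, the hormone that reports fat stores to the brain, had the largest change of the 10 genes in Acomys at each of the 4 days in the component used, but not at D15 and D20 with its 4 components summed. Its D0 libraries held 64.0, 120 and 69.1 reads, and those of D5 held 4.06, 2.04 and 5.07. The Acomys libraries held 6.87, 6.36 and 1.92 reads at D10, 18.8 and 3.23 at D15, and 8.73, 6.15 and 10.6 at D20. None of the later libraries reached the range of D0, and the log2 change was -4.18 at D5 (SE 0.32, limma adjusted p = 6.67e-09) and -3.14 at D20 (SE 0.27, adjusted p = 8.95e-08). Every one of these later libraries except D15 library 1, with 19, held 10 or fewer leptin reads before scaling, which limits the precision of the fold. In Mus, Lep libraries went from 37.4, 47.8 and 45.7 reads at D0 to 12.9, 10.8 and 15.1 at D5 and 14.7, 18.2 and 6.25 at D10. They held 3.92, 5.49 and 15.3 reads at D15 and 44.7, 59.1 and 35.2 at D20. The D20 libraries spanned those of D0, with a log2 difference of 0.06 (SE 0.22, limma adjusted p = 0.840), after log2 changes of -1.68 at D5 (adjusted p = 0.000210) and -2.46 at D15 (adjusted p = 0.00218). Lep at D5 in Mus missed the posterior threshold, although all 3 of its libraries lay below D0.

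Adipsin, the complement factor D protease, was lowest at D5 in Acomys. In Acomys, Cfd fell from 970 to 1155 reads at D0 to between 314 and 360 at D5 and stood higher at D10, between 561 and 626. Its D15 libraries held 575 and 389 reads, and the D20 mean was 43.9% of D0. The log2 change was -1.67 at D5 (SE 0.08, limma adjusted p = 1.50e-11) and -0.86 at D10 (SE 0.07, adjusted p = 3.89e-07). In Mus, Cfd fell from between 84.9 and 142 reads to between 17.4 and 26.6 at D5, and held 3.14, 27.5 and 26.2 at D15. At D20 the Mus libraries held 28.7, 67.2 and 35.2 reads, still all below D0, with a log2 change of -1.40 (SE 0.30, adjusted p = 0.00467).

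Among the droplet proteins, perilipin 1, which guards the droplet of the fat cell against lipolysis, had a course like that of adiponectin. Acomys Plin1 held 656, 840 and 577 reads at D0 and 129, 133 and 175 at D5. It held 121, 128 and 132 at D10, 190 and 104 at D15, and 83.2, 94.96 and 101 at D20. The fall grew from 4.74-fold at D5 to 7.44-fold at D20 in group means, with a log2 change at D20 of -2.87 (SE 0.12, limma adjusted p = 3.72e-11). In Mus it held 100.3, 107 and 138 reads at D0, then 31.1, 44.0 and 24.8 at D5, 41.7, 51.1 and 18.8 at D10, and 15.7, 38.4 and 55.7 at D15. The Mus D20 libraries, at 78.0, 123 and 86.4, again overlapped D0, and the log2 difference was -0.28 (SE 0.19, adjusted p = 0.263). The D20 results for Adipoq and Plin1 in Mus depended on library 2, the highest of the 3 for both: without it, 6 of the 7 genes tested instead of 4 passed as lower, these 2 being the additional ones.

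Perilipin 4, a coat protein of small and nascent droplets, was called lower at all 4 days in both species. The Mus D0 libraries held between 1375 and 1536 reads, those of D5 between 290 and 392, those of D10 between 165 and 346, and those of D15 between 146 and 343. The Mus group mean at D20 was 581, which is 39.5% of D0. In Acomys the mean went from 1811 at D0 to 630, 649, 410 and 382, ending at 21.1% of D0. Cidea, a droplet protein of brown fat and of sebocytes that promotes lipid transfer between droplets, held 888, 837 and 871 reads at D0 in Acomys and 239, 251 and 209 at D20. In Mus it held 403, 359 and 353 reads at D0, 49.0, 59.9 and 45.0 at D10, and 139, 118 and 140 at D20. Every D20 library in Mus lay above every D10 library and below every D0 library, with a log2 change of -1.48 (SE 0.10, limma adjusted p = 8.67e-06).

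The 3 lipases took different courses. Lipoprotein lipase, which frees fatty acids from circulating triglyceride, fell in Acomys from 1991, 2657 and 1463 reads at D0 to 249, 307 and 321 at D20, a log2 change of -2.77 (SE 0.15, limma adjusted p = 5.21e-10). In Mus the group mean of Lpl went from 2325 to 1212, 1399, 1494 and 1682 over the 4 later days, all of which except D15 were called lower. Hormone-sensitive lipase, encoded by Lipe, fell in Acomys from between 384 and 391 reads at D0 to between 148 and 205 at D5 and between 123 and 178 at D20. In Mus the mean of Lipe went from 247 to 255, 168, 170 and 203 over the 4 later days, and only D15 was called lower. Adipose triglyceride lipase, encoded by Pnpla2, which takes the first fatty acid from stored triglyceride, was the gene that did not pass at D5 in Acomys, with D0 libraries at 606, 597 and 546 and D5 libraries at 602, 616 and 765. It fell there at later days, to 258, 243 and 281 reads at D20 (log2 change -1.16, SE 0.08, adjusted p = 8.59e-09). In Mus Pnpla2 was lower at every day, with D0 libraries between 362 and 377 reads, D5 libraries between 162 and 208, and D20 libraries between 211 and 220.

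Pparg was lower at every day by limma in both species. The Acomys libraries held 478, 447 and 434 reads at D0, 201, 194 and 278 at D5, 170, 151 and 135 at D10, 176 and 138 at D15, and 153, 170 and 163 at D20. The Acomys mean was nearly flat from D10, between 151 and 162. In Mus they held 155, 149 and 141 reads at D0, 49.3, 55.6 and 51.8 at D5, 56.4, 35.2 and 31.9 at D10, and 41.5, 43.0 and 65.6 at D15. The D20 libraries in Mus held 87.3, 95.3 and 91.4 reads, between the levels of D15 and D0 with no overlap with either. The log2 change at D20 was -1.48 in Acomys (SE 0.08, adjusted p = 9.35e-10) and -0.69 in Mus (SE 0.10, adjusted p = 0.000549), where the posterior probability did not reach the threshold.

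The lowest group mean fell at D20 for 7 of the 10 genes in Acomys and at D5, D10 or D15 for all 10 in Mus. At D20 the Acomys means stood between 10.1% (Lep) and 44.7% (Pnpla2) of D0 and the Mus means between 35.6% (Cidea) and 106% (Lep). D20 was therefore also set against D15. In Mus the log2 differences were 2.53 for Lep (SE 0.45), 2.26 for Adipoq (SE 0.67), 1.51 for Plin1 (SE 0.41), 1.51 for Cfd (SE 0.71), 1.12 for Cidea (SE 0.16), 0.89 for Pparg (SE 0.19) and 0.45 for Pnpla2 (SE 0.15). None of the 7 passed limma with Benjamini-Hochberg adjustment, where 0.0257% of all genes were higher, and 6 of the 7 had an unadjusted p under 0.05. Without Mus D15 library 3, the highest of that day for all 7 genes except Cfd, 3 genes passed, namely Lep, Cidea and Pparg. In Acomys 1 of 8 genes passed as lower at D20 than at D15, Pnpla2 at -0.39 (SE 0.09, adjusted p = 0.0445), beside 1.84% of components. That call was lost on leaving out 4 of the 5 libraries in turn, and without Acomys D15 library 2 the genes that passed were Adipoq, Plin1 and Lpl.

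The spread among libraries was uneven. The SD over libraries of the median log2 change of the genes was 0.87 for Mus D15, 0.56 for Mus D10 and 0.41 for Acomys D15, and between 0.06 and 0.11 for the other 5 groups. Mus D15 library 1 was the lowest of its day for 7 of the 8 genes recovered there, and Mus D10 library 3 for all 8.

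The change from D0 was then compared between the species as the Acomys log2 change minus the Mus log2 change, tested with limma as an interaction over recovered pairs. At D20 all 6 genes that could be tested had fallen further in Acomys, beside 22.3% of pairs. The difference was -3.20 for Lep (SE 0.38, adjusted p = 2.88e-05), -2.75 for Adipoq (SE 0.27, adjusted p = 4.51e-06) and -2.59 for Plin1 (SE 0.25, adjusted p = 3.89e-06). It was smaller for Pparg, at -0.78 (SE 0.12, adjusted p = 0.000211), for Pnpla2, at -0.40 (SE 0.11, adjusted p = 0.00944), and for Cidea, at -0.41 (SE 0.13, adjusted p = 0.0261), which was lost on leaving out 7 of 12 libraries in turn. The median difference of all pairs at D20 was -0.09, so that relative to it the values of these 6 genes are smaller in size. The other 4 genes, not tested, differed by -2.34 for Lpl, -1.13 for Lipe, -0.90 for Plin4 and 0.16 for Cfd.

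At the earlier days the genes did not share a direction. At D5 2 of 7 genes had fallen further in Acomys, beside 14.4% of pairs, with differences of -2.49 for Lep (SE 0.43, adjusted p = 0.000343) and -0.68 for Adipoq (SE 0.26, adjusted p = 0.0451). Another 3 of 7 had fallen less in Acomys or not at all, beside 27.5% of pairs, with differences of 1.15 for Pnpla2 (SE 0.15, adjusted p = 2.35e-05), 0.91 for Cidea (SE 0.12, adjusted p = 3.05e-05) and 0.46 for Pparg (SE 0.17, adjusted p = 0.0424). The median difference of all pairs at D5 was 0.17, so that relative to it the values of Pnpla2, Cidea and Pparg are smaller and those of Lep and Adipoq larger in size. The Adipoq call was lost on leaving out 9 of 12 libraries in turn, which left 1 gene of 7, and the Pparg call on leaving out 8 of 12, while Cfd passed as higher without Mus D0 library 3 or Mus D5 library 2. At D10 Lep had fallen further in Acomys, with a difference of -2.14 (SE 0.60, adjusted p = 0.0131), the only gene of 6 to do so, beside 16.0% of pairs. Without Mus D10 library 3, Adipoq and Plin1 passed as well, 3 of 6 genes, and without Mus D10 library 1 Pparg passed as higher. At D10 Cfd and Pnpla2 had fallen less in Acomys, with differences of 1.58 (SE 0.20, adjusted p = 5.47e-05) and 0.71 (SE 0.09, adjusted p = 8.54e-05), 2 of 6 genes beside 17.5% of pairs.

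At D15 Cidea alone of 8 genes passed, with a difference of 0.86 (SE 0.21, adjusted p = 0.0124), beside 11.5% of pairs higher and 13.7% lower. This call was lost without Acomys D15 library 1, which left 0 genes. With 2 genes in each case, Cfd passed as well without Mus D15 library 1, and Pnpla2 without Mus D15 library 3. Over all 10 genes the median of the difference in group means was 0.02, -0.11, -0.37 and -1.02 at D5, D10, D15 and D20, with 5, 5, 6 and 9 genes below 0.

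**Figure D3:**
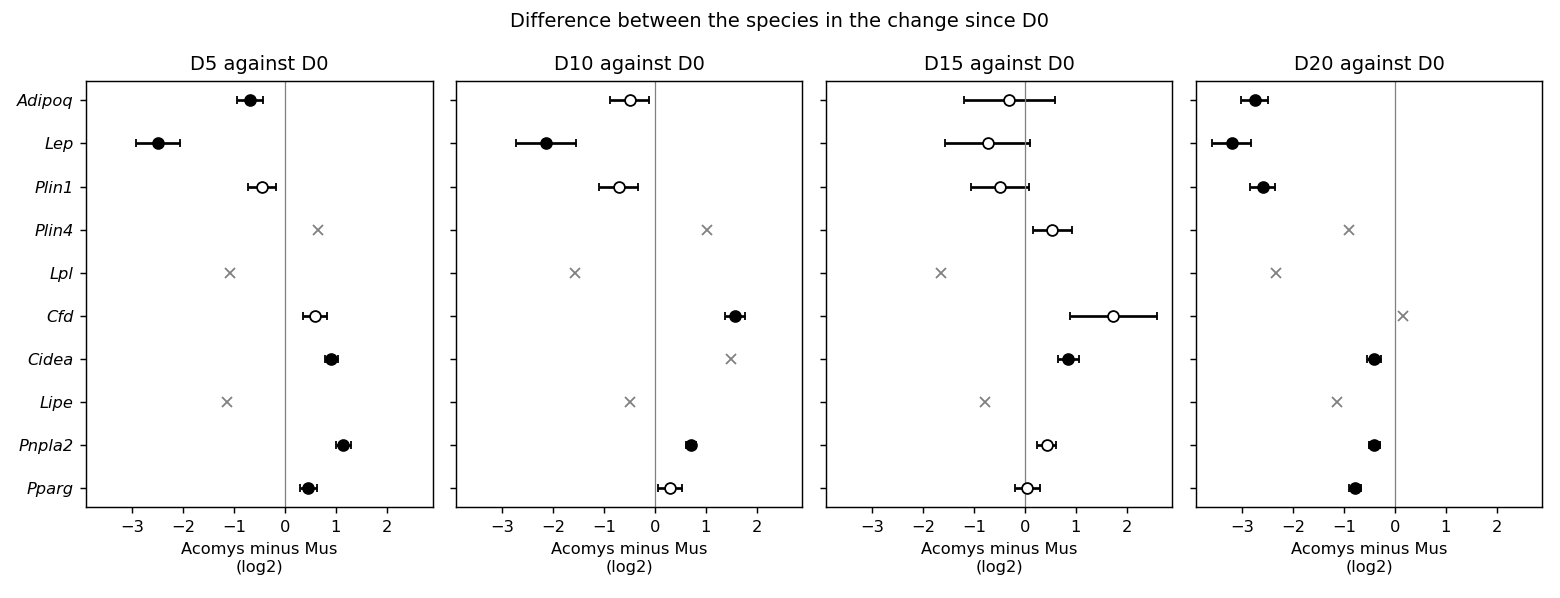
Acomys minus Mus difference in log2 change from D0 (x axis) for the genes (y axis), 1 panel per day; points with bars are limma estimates ± 1 SE, filled where the adjusted p was under 0.05, open where it was not, and crosses are differences of group means that were not tested. At D20 all 6 tested genes lie left of 0, from -3.20 for Lep to -0.40 for Pnpla2.

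For 5 of the genes the Acomys assembly held further components with the same best match. A further Lpl component, with 1127 reads at D0, was called lower at all 4 days, with log2 changes of -1.71, -1.99, -2.01 and -2.37. A further Plin1 component of 40.3 reads at D0 was also called lower at every day. The 3 further Lep components held between 30.2 and 48.8 reads at D0, and all were called lower at D5 and D10, and the 4 components summed changed by -3.44 at D5 in place of -4.50. At D15 and D20 the summed Lep changed by -2.99 and -2.81, smaller in size than Adipoq at -3.02 and -3.12. A further Pparg component that aligned over 94 bases was not called at any day, with log2 changes between -0.35 and -0.15, and adding it moved the Pparg change at D20 from -1.48 to -1.27. The further Pnpla2 component held 2.38 reads at D0 and was not called.

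The wider fat-cell programme was read from lists of named genes. Beside the list counts here and below, 17.0 to 19.6% of Mus genes with a mean of at least 10 were called lower. Higher calls took 12.3 to 16.5% of all Mus genes, a wider base that also holds genes below that mean. In Acomys the shares were 3.37 to 4.11% of components with that mean lower and 0.948 to 1.78% of all components higher. Most of those components had no match to a mouse gene, whereas each list gene was a matched component. Among recovered components, all matched to a mouse gene, 20.2 to 24.6% were lower by limma, a different test. A count such as 1 of 6 genes lower is near the Mus share and does not exceed the limma share in Acomys. In the list of lipid storage and synthesis, 9, 14, 18 and 18 of the 20 genes measured were called lower at D5, D10, D15 and D20 in Acomys, with 3 called higher at D5. In Mus 12, 15, 14 and 11 of 20 were called lower and none higher. The median log2 change of the list at D20 was -0.96 in Acomys and -0.43 in Mus. Slc2a4, the insulin-responsive glucose transporter that muscle shares with fat, fell in both species, with log2 changes at D5 and D20 of -2.57 and -3.09 in Acomys and -2.80 and -2.12 in Mus. Aqp7, the glycerol channel of the fat cell, had log2 changes between -3.21 and -2.87 in Acomys, and Gpd1, which makes the glycerol backbone, had changes of -1.99 at D10 and -0.86 at D20 in Mus, all called. At the other end in Acomys, among genes called on 3 or more days, were Acly, the enzyme that supplies cytosolic acetyl-CoA, and Lpin1. Both were called in opposite directions over the days. Acly changed by 0.45 at D5 and by -0.28 and -0.24 at D15 and D20, and Lpin1 by 0.16 at D5 and by -0.16 and -0.21 at D15 and D20, all called. Among Mus genes called on 3 or more days, the highest were Fasn, the fatty acid synthase, and Dgat2, which makes triglyceride. Their mean changes over the days were -0.27 and -0.30, and some genes called on fewer days lay higher. Cidec and Fabp4, a droplet protein and the fatty acid carrier of fat cells, were singled out after their values were seen. Cidec changed by -3.03 at D20 in Acomys, where it was called, and by -0.24 in Mus, where it was not. Fabp4 changed by -2.82 at D20 in Acomys, also called, and by -0.13 in Mus, not called. Of the same list, 11 of 20 genes were still called lower in Mus at D20, Aqp7 among them at -1.255.

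Of the regulators and hormones of the fat cell, 4, 5, 8 and 7 of 13 were called lower in Acomys and 8, 7, 8 and 5 of 14 in Mus, with 3, 0, 0 and 0 called higher in Acomys and 4, 3, 1 and 2 in Mus. With the posterior threshold raised to 0.99, 1 was called higher in Mus at D20. Retn, which encodes resistin, a fat-cell hormone of mice, had log2 changes between -2.98 and -2.33 in Acomys, called at all 4 days. Npr3, the clearance receptor of natriuretic peptides, fell at all 4 days in both species, with mean changes of -1.30 in Acomys and -2.05 in Mus. Among genes called on 3 or more days in Acomys, Cebpb, an early factor of adipogenesis, and Klf15, a later one, were the highest. Cebpb was called higher there at D5, at 0.77, and lower at D15 and D20, at -0.74 and -0.69, while Klf15 changed by -0.34 at D5 and -0.45 at D20, both called. Klf15 was called lower at all 4 days in Mus, at -2.27 at D5 and -1.32 at D20. Mlxipl, the carbohydrate-sensing factor ChREBP, had changes between -3.95 and -2.57 in Mus. Lipa, a lysosomal lipase, rose at every day in Mus, by 1.85 at D5 and 1.14 at D20, and fell in Acomys at D10, D15 and D20, by 0.61, 0.64 and 0.90. Cebpa, a partner of PPARγ, rose by 0.84 at D5 in Mus and was not called in Acomys. Of 4 receptors for adiponectin and leptin, 2, 2, 1 and 1 were called lower in Acomys and 2, 3, 2 and 3 in Mus, with 1 called higher in Mus at D5. Adipor2, an adiponectin receptor, changed by -0.56 and -0.48 at D20 in Acomys and Mus, and Cdh13, which binds adiponectin at the cell surface, by -0.41 in Mus.

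Of 6 partners of the lipases, 1, 4, 3 and 3 were called lower in Acomys and 2, 2, 1 and 3 in Mus, with 2 called higher in Acomys at D5 and 1 in Mus at D5 and D10. The gene higher in Mus was Angptl4, an inhibitor of lipoprotein lipase singled out after its values were seen, at 2.35 and 1.13, the D10 call being lost with the posterior threshold raised to 0.99, and it was also called higher in Acomys at D5, at 0.74. Gpihbp1, which holds lipoprotein lipase on capillary endothelium, fell from 3043 reads at D0 to 265 at D5 and 330 at D20 in Acomys. In Mus it had 18.2 reads at D0 and log2 changes between 0.13 and 0.61, not called at any day. The match of the Acomys Gpihbp1 component was not required to be reciprocal, and whether that component belongs to a related gene was not tested. G0s2, the inhibitor of adipose triglyceride lipase, rose at D5 in Acomys by 1.69 and fell by 2.28 at D20, whereas in Mus it fell by 2.74 at D5. Abhd5, the coactivator of that lipase, had a mean change of -0.37 in Acomys, and Plin5, a droplet protein of oxidative tissue, fell by 2.32 at D5 in Mus. In the list of brown and beige fat, 4, 4, 4 and 5 of 7 genes were called lower in Acomys and 4, 5, 5 and 4 of 8 in Mus, with 1, 1, 0 and 0 called higher in Acomys and 1, 1, 0 and 1 in Mus. Cox8b and Cox7a1, subunits of cytochrome oxidase found in brown fat and in muscle, led it with mean changes of -3.49 and -3.41 in Acomys and -2.96 and -3.29 in Mus. The coactivator Ppargc1a had a mean change of -2.61 in Acomys and the beige-fat factor Prdm16 one of -1.72 in Mus. The gene called higher in both species was Dio2, the deiodinase that activates thyroid hormone, at 1.68 at D5 and 1.44 at D10 in Acomys and at 1.61, 1.34 and 1.04 at D5, D10 and D20 in Mus, the D20 call being lost with that higher threshold. Ucp1, the defining gene of brown fat, had a mean of 3.29 reads at D0 in Mus.

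Genes of adipocyte progenitors included some that rose. Dlk1, which marks preadipocytes and is lost as they mature, was not called at D5 in either species and rose at D10, D15 and D20 by 2.30, 3.42 and 3.07 in Acomys and by 1.78, 2.99 and 3.46 in Mus. Pdgfra, a receptor of fibroblasts and fat progenitors, rose at all 4 days in both, by 1.44 in Acomys and 1.49 in Mus at D20. Gsn, the actin-severing protein gelsolin, fell at all 4 days, with mean changes of -2.14 and -1.33. Pdgfrb in Acomys and Ebf1 in Mus had mean changes of 0.75 and 0.69. In all, 5, 2, 2 and 2 of 9 genes of this list were called lower and 1, 3, 4 and 3 higher in Acomys, against 1, 1, 1 and 1 lower and 3, 5, 5 and 5 higher in Mus. With the posterior threshold raised to 0.99, 1 gene of the list was lower in Acomys at D15. Of the complement genes that work with adipsin, 3, 3, 1 and 1 of 4 were called higher in Acomys. In Mus 3 of 5, 0 of 5, 2 of 4 and 2 of 5 were higher. Called lower were 1 of 4 at D20 in Acomys, and 2 of 4 at D15 and 1 of 5 at D20 in Mus. C3, the central complement protein, was singled out after its values were seen, and changed by 1.97 at D5 and 0.52 at D20 in Acomys and by -1.60 at D15 and -1.27 at D20 in Mus, all called. The Acomys call at D20 was lost with the posterior threshold raised to 0.99. Cfb, the substrate of adipsin, changed by 4.86 at D5 in Acomys and 1.88 in Mus, and properdin (Cfp) by 0.91 and 1.76, all called.

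Markers of other cells in the ring moved over the same days. Skeletal muscle, which shares Lpl, Pnpla2, Lipe, Slc2a4 and the cytochrome oxidase subunits with fat, was lower at every day. In Acomys Myh4, Myh1 and Myh2 were matched to the same component, so that the 9 markers measured stand for 7 components. Of these 7 components 6 were called lower at each of the 4 days, led by Tnni2 and Tnnt3 with mean changes of -3.61 and -3.47. Acta1 was called higher at D5, D10 and D15, at 1.13, 0.71 and 0.38. Matches of list genes were not required to be reciprocal, and whether the Acta1 component belongs to a related gene was not tested. In Mus 9 of 9 were called lower at each day, Acta1 included, with a median of -2.97 at D20. The sum of the 4 muscle markers recovered at D20 in Acomys lay between 21350 and 23850 at D0 and between 1266 and 2448 at D20. In Mus the sum of the 3 recovered lay between 7642 and 9111 at D0 and between 447 and 1724 at D20. Muscle markers thus stayed below D0 in Mus at D20. Of the 7 adipocyte genes recovered there, Adipoq, Lep and Plin1 overlapped D0, while Cfd, Cidea, Pnpla2 and Pparg lay below it. The sum of these 7 genes also lay below D0, between 674 and 796 at D20 against 1245 and 1315 at D0.

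Sebaceous gland markers were called lower for 6, 8, 9 and 8 of 10 genes in Acomys and for 6, 8, 8 and 5 of 10 in Mus, with 1 called higher in Acomys at D10. Their recovered sums were below D0 in each of the 8 comparisons, at D20 between 3045 and 3174 against 6475 and 7525 in Acomys (6 genes) and between 642 and 1461 against 2396 and 3021 in Mus (5 genes). Awat2, which makes wax esters, and Mc5r, a receptor of sebocytes, had mean changes of -1.30 and -1.26 in Acomys, and Scd3 and Far2, lipid enzymes of the gland, of -3.44 and -2.18 in Mus. Elovl3 is counted both here and among the brown-fat genes, and Pdgfra both as a progenitor and as a fibroblast gene.

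Markers of macrophages were called higher for 5, 5, 4 and 0 of 6 genes in Acomys and for 5 of 6 at each day in Mus, where Lyz2 rose by 2.61 at D5. With the posterior threshold raised to 0.99, the Mus count at D10 was 3. In Acomys 1 of 6 was called lower at D20. Endothelial markers were called lower for 1, 1, 2 and 5 of 6 genes in Acomys, Pecam1 among them at -0.89 at D20, and higher for 5, 3, 4 and 4 of 6 in Mus, where Pecam1 rose by 0.71 at D20. Fibroblast markers were called higher for 2, 5, 5 and 5 of 5 genes in Acomys and for 4, 5, 5 and 5 of 6 in Mus, with 1 called lower in Acomys at D5. The Acomys count of higher genes at D5 was 1 at that higher threshold. Col3a1, a fibrillar collagen, rose by 2.73 at D20 in Acomys and by 3.23 in Mus. The part that muscle, sebaceous gland, macrophages, vessels or fibroblasts had in the values of the 10 genes was not tested.

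**Figure D4:**
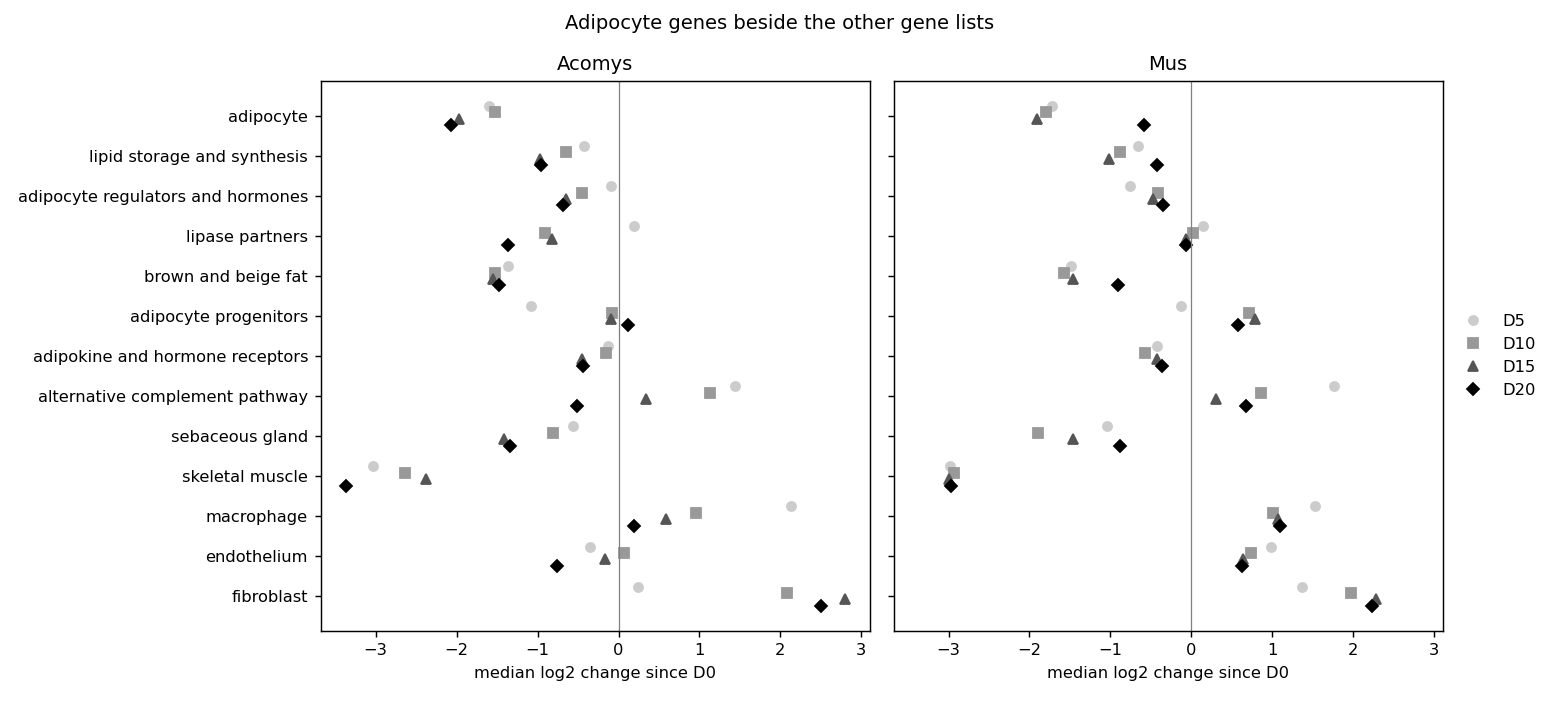
Median log2 change from D0 (x axis) of each gene list (y axis) in Acomys and Mus, 1 point per day; the vertical line marks no change. The 10 adipocyte genes move from -1.91 at D15 to -0.58 at D20 in Mus but stand at -2.07 at D20 in Acomys, while the skeletal muscle list stays at -2.97 in Mus.

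The genes whose course was nearest to the median course of the 10 were sought among the 12275 pairs whose means reached 10 in each species, by Euclidean distance over the 8 log2 changes. The nearest were Nr3c2 (distance 0.91), which encodes the mineralocorticoid receptor, Fzd9 (0.92), a Wnt receptor, Lrrc14b (0.92), Clec3a (0.95) and Wnk4 (0.96), a kinase that controls ion transport. Nr3c2 changed by -1.64 at D20 in Acomys and by -1.03 in Mus. The 10 genes themselves ranged in distance from 1.01 for Pparg to 4.35 for Lep, so that 10 other pairs lay closer to their median than Pparg and 3294 closer than Lep.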

How the data were processed

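Ear pinna RNA was measured in 10 groups, 5 days of 2 species, with 3 libraries a group per the study's methods. The authors assembled the Acomys transcriptome with Trinity, mapped reads with Bowtie, estimated expression with RSEM on that assembly or on the mm10 annotation, and compared each later day with D0 in EBSeq. The 8 deposited tables hold, for each gene or component, 2 ratios (fold changes of D0 over the later day) and a score, the posterior probability of differential expression in the authors' own comparisons, where a high value stands for a difference; the probabilities are used here as calls and not printed. The submitters' processing notes name RSEM and mm10.

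Group means were solved from the 2 ratios, since they carry different added constants (0.01 and a table constant). Library values were then recovered as whole or hundredth reads divided by a size factor: 99.63% and 99.6% of solvable D0 values in Mus and Acomys fell on hundredths of a read, and 74.7 to 98.9% of features were recovered at a later day. On simulated data of 8228 features, 93.8 to 100% were recovered and at least 99.99% of these were right. The simulated reads were drawn from Mus features already recovered at every day, plus features of very few reads. These rates therefore do not cover features like those that could not be recovered. These values are reconstructions, and the tables themselves list no value per animal. GEO gives 1 sample per group, so nothing in the labels ties a library to an animal, and p-values measure the spread between libraries.

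Mus gene numbers were named by fitting their order to the GENCODE vM21 transcripts with anchors from the study's supplementary data (1764 of 1774 held-out anchors placed right, 99.4%, and 22181 numbers named). Another 218 held-out anchors were not placed. Of the 10 members only Pparg was itself among the anchors. The other members were named by this fit, with the lowest placing probability, 0.947, for Adipoq. Acomys components were named by top bit score below 99% identity in the deposited BLASTN alignments, which also give percent identity. The named genes are the 10 members, the up to 2 highest and 2 lowest of each list by mean change with a mean of at least 10 and calls on 3 or more days, and the 5 nearest pairs. Cidec, Fabp4, Angptl4, C3 and Ucp1 are named outside this rule, after their values were seen. The members and lists were chosen with earlier results of these data known. limma 3.58.1 (R 4.3.3, trend, log2(normalised reads + 1), mean of at least 5, Benjamini-Hochberg over all recovered features) was added after seeing the data, and the fixed design had foreseen group means without a test. In simulation it found 24.3 to 46% of changes of 1 log2 unit and 93.3 to 100% of changes of 2 log2 units. Other thresholds, pseudocounts, scalings, component choices and left-out libraries were tried.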

Additional observations from a re-analysis of the deposited data

Results flagged for a closer look

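For 15 results the change from D0 differed between the species by the limma interaction test, given as Acomys minus Mus in log2 units. At D5 they were Adipoq (-0.68), Lep (-2.49), Cidea (0.91), Pnpla2 (1.15) and Pparg (0.46). At D10 they were Lep (-2.14), Cfd (1.58) and Pnpla2 (0.71), and at D15 Cidea (0.86). At D20 they were Adipoq (-2.75), Lep (-3.20), Plin1 (-2.59), Cidea (-0.41), Pnpla2 (-0.40) and Pparg (-0.78). Among all pairs, 14.4%, 16.0%, 13.7% and 22.3% were lower in Acomys at D5, D10, D15 and D20. The shares higher in Acomys were 27.5%, 17.5%, 11.5% and 11.7%. Leaving out 1 library in turn lost Adipoq and Pparg at D5 and Cidea at D20 in 9, 8 and 7 of 12 cases. The difference was above 0 at D5 and below 0 at D20 for Cidea, Pnpla2 and Pparg. Pnpla2 had not fallen in Acomys at D5. The days of a species share its D0 libraries, so these values are not independent of each other.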

How the results depend on the processing

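Counts of called members kept within 1.5 times of their value in 23 of 24 other settings, the exception being Mus D20, where a log2 change of at least 1 in size left 3 genes in place of 5. Of 440 values of single members' log2 changes 436 moved by less than the spread between libraries, and the median member change did so in 43 of 44, the exception being Acomys D10, which went from -1.53 to -1.42 with all components summed. Of 384 counts in gene lists 377 stayed within 1.5 times, and the other 7, all at a posterior probability of at least 0.99, were macrophage genes higher in Mus at D10 (3 in place of 5), regulators higher in Mus at D20 (1 for 2), progenitor genes lower (D15, 1 for 2) and fibroblast genes higher (D5, 1 for 2) in Acomys, and the single calls of Angptl4 (Mus D10), Dio2 (Mus D20) and C3 (Acomys D20). All 44 limma counts under another pseudocount, filter or pairing stayed within 1.5 times. Leaving out each library in turn, 134 of 152 limma counts did so. The others ranged from 0 to 3 for members lower at D20 than D15 in Acomys (1 with all libraries), from 0 to 3 for members higher at D20 than D15 in Mus (0 with all), from 1 to 2 and from 1 to 3 for members lower in Acomys than in Mus at D5 (2) and D10 (1), and from 0 to 2 for members higher in Acomys at D15 (1). A lone library left in a group was assumed to vary like the other groups. The cause of these differences was not tested, and no direction reversed. No paired analysis was possible because GEO lists 1 sample per group and the recovered libraries carry no number from the labels. Low reads limited Lep in Acomys, and 3 of 10 members lacked recovered libraries in Mus at D20.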
